A study of Homo sapiens with 6 samples.

Results

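The genes described here encode the machinery of transport between the endoplasmic reticulum (ER) and the Golgi: the COPII and COPI coats, their GTPases and exchange factors, cargo receptors, tethers and SNAREs. They are 41 named genes out of 21533 listed, chosen by symbol for their known function, with earlier results of these data known. All 41 had enough reads to be tested. The data are bulk RNA sequencing of LX-2 cells, a permanently growing human line derived from hepatic stellate cells. In 3 samples the cells were transfected with PERK siRNA and in 3 with control siRNA. All 6 were then given palmitic acid, a saturated fatty acid, and RNA was taken 24 h later, so no group was free of it. One cell line was used. The sources used here name neither the siRNA sequences nor the fatty acid dose, and do not say whether replicates were separate cultures, so the p-values may reflect technical spread alone.

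COPII coats bud vesicles from ER exit sites: the GTPase SAR1 recruits SEC23 and SEC24, which bind cargo, and SEC13 with SEC31 forms the outer cage. COPI coats, assembled from a preformed coatomer complex under ARF GTPases, carry escaped ER proteins and receptors back from the Golgi. Stellate cells send large amounts of collagen along this route, and PERK, encoded by EIF2AK3, is an ER membrane kinase that slows translation when unfolded proteins accumulate in the ER.

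EIF2AK3 itself had 4.37, 4.96 and 5.52 CPM (reads scaled for library size) in PERK siRNA samples, against 12.92, 12.98 and 13.87 CPM in control siRNA samples. That left 37.3% of the control level (log2 fold change -1.42 ± 0.10 SE, edgeR adjusted p = 3.0e-13). Depth was 17937141 to 19535253 total exon reads in PERK siRNA samples and 18560051 to 19585872 in control samples, and a member had between 332 reads (COPZ2) and 9089 reads (TMED2) in a sample. Of 9 stellate and mesenchymal markers, 8 had a mean of at least 1 TPM (reads scaled for gene length and library size) and DES had 0 to 1 reads per sample; the 9 summed to 5629 to 5649 TPM in PERK siRNA samples and 5147 to 5261 TPM in control samples, most of it VIM and COL1A1. Single stellate markers differed more: COL3A1 averaged 132.2 TPM with PERK siRNA and 246.8 TPM with control siRNA, ACTA2 58.5 TPM with PERK siRNA and 15.2 TPM with control siRNA, and COL1A2 18.6 TPM with PERK siRNA and 8.12 TPM with control siRNA. Of 4 hepatocyte markers, ALB, APOA1 and TTR were at 0 in every sample and SERPINA1 had 2.82 to 4.04 TPM. Of 4 macrophage and leukocyte markers, CD163 and CD3E were at 0, and the sum of the 4, nearly all CD68, was 104.5 to 107.6 TPM with PERK siRNA and 107.3 to 112.0 TPM with control siRNA. The 3 endothelial markers summed to 0.37 to 0.79 TPM with PERK siRNA and 4.82 to 4.91 TPM with control siRNA, mainly PECAM1, and the 3 cholangiocyte markers to 14.0 to 14.98 TPM with PERK siRNA and 23.8 to 27.7 TPM with control siRNA, mainly KRT7. The part of these marker differences in the results was not tested. In bulk RNA of a single cell line, fewer cells expressing a marker and less of its RNA per cell cannot be told apart.

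Members moved in both directions, and their changes were small. At an adjusted p under 0.05 (edgeR quasi-likelihood test, Benjamini-Hochberg over 12973 genes), 18 of 41 rose with PERK siRNA, 13 fell and 10 were not called. That is 43.9% higher and 31.7% lower, beside 34.4% higher and 35% lower among all tested genes, so a call by itself is common in these data. A second test asked for a change beyond 1.2-fold. It was passed by 7 members that rose (17.1%, against a background of 18.1%) and 4 that fell (9.76%, against 18.1%). The median absolute log2 fold change was 0.17 over the members and 0.28 over all tested genes. In 29 of 41 members (70.7%) the PERK siRNA and control samples did not overlap in CPM, beside 71.8% of all tested genes. The 7 risers were SEC31A, SEC23A, COPA, COPZ1, COPZ2, KDELR3 and TMED10, and the 4 that fell were SEC23B, COPG2, ARCN1 and TMED5. When a 1.5-fold change was asked for, the risers SEC31A, COPZ1, KDELR3 and TMED10 remained (4 of 41, against 6.76% of all tested genes) and 0 falling members did (against 6.66%), also at an unadjusted p under 0.05.

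**Figure D1:**
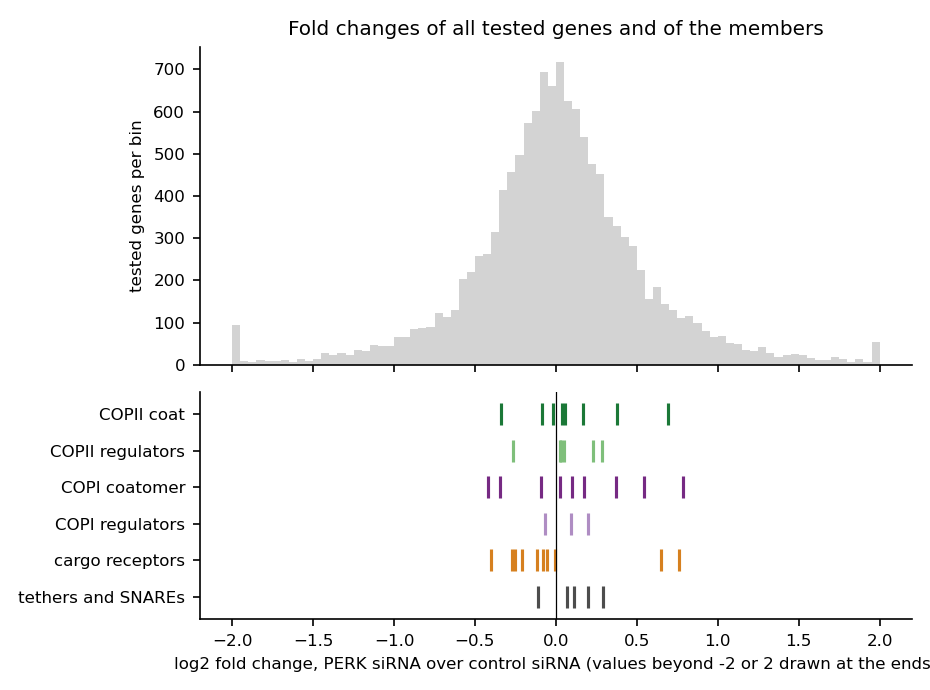
Distribution of the log2 fold change (PERK siRNA over control siRNA) of 12973 tested genes, with bins on the upper axis as gene counts, and below it 1 tick for each of the 41 members by role. The members lie between -0.42 and 0.78, and the quartiles of all tested genes are -0.27 and 0.29.

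Promoter windows, which the choice of members did not use, were searched for ER stress elements. RefSeq windows of 250 bases before to 50 bases after a transcription start (GRCh38.p14) were found for 36 of the 41 members. Some lie at a start inside the gene's span in GENCODE 29, among them windows of MIA3, COPZ1 and SEC23A. The 7 letters GACGTGG, core letters of the unfolded protein response element to which the ER stress factors XBP1 and ATF6 bind, occurred on either strand in windows of 18 of the 36 (50%). Among all tested genes with a window the share was 5.6%, and among all 35116 windows it was 3.13%. By class it was found for 9 of 11 COPI members, 6 of 13 COPII members, 2 of 8 cargo receptors and 1 of 4 tethers and SNAREs. The overlapping letters TGACGTG occurred for 13 of 36 members, against 3.33% of tested genes and 1.97% of windows. The ER stress response element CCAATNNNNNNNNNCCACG and the letters TGATGNAA, the core of the element bound by ATF4, occurred for 0 of 36 members on either strand. Their shares were 0.153% and 2.76% of tested genes and 0.0769% and 3.62% of all windows. The motifs were chosen with results of these data known, and a match is only a description of the letters in these windows.

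GACGTGG was found in windows of members called higher (11 of 16), called lower (4 of 11: ARCN1, SEC16A, ARF1 and TMED3) and not called (3 of 9). Of the 7 members that rose past 1.2-fold, 5 carried GACGTGG, and of the 4 that fell past it, ARCN1 did; among 25 members with a window that did not pass that test, 12 did. SEC31A and TMED10, both risers, had a window without it. The matched sites of COPA, COPZ1, COPZ2, KDELR3, ARCN1, SEC16A and GBF1 are shown with their flanks, because these are the members with the site whose values are given by sample in the text. Each is read 5′ to 3′ on the gene's own strand, with the motif or its reverse complement CCACGTC in capitals.
COPA (chr1:160343218-160343264, minus strand): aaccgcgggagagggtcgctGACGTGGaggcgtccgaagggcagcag
COPZ1 (chr12:54325117-54325163, plus strand): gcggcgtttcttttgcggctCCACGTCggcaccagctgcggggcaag
COPZ2 (chr17:48037748-48037776, minus strand): tgcagcggcccgaggcctggCCACGTCcg
KDELR3 (chr22:38468030-38468076, plus strand): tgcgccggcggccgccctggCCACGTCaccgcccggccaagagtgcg
ARCN1 (chr11:118572370-118572416, plus strand): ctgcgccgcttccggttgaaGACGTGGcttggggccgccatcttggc
SEC16A (chr9:136484699-136484745, minus strand): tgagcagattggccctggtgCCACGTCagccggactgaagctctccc
GBF1 (chr10:102245517-102245563, plus strand): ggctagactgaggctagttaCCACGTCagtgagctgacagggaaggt
The SEC23 paralogs, which moved in opposite directions, are shown as whole windows of 300 bases. SEC23A held the motif 3 bases before its RefSeq start, and neither of the SEC23B windows held it. This pair was picked because its values had moved apart. In other families the motif was held by SAR1A, called higher, by ARF1, called lower, and by COPG1, SEC24A and SEC24C, not called. Any part of the motif in the SEC23 difference was not tested.
SEC23A (chr14:39103186-39103485, minus strand): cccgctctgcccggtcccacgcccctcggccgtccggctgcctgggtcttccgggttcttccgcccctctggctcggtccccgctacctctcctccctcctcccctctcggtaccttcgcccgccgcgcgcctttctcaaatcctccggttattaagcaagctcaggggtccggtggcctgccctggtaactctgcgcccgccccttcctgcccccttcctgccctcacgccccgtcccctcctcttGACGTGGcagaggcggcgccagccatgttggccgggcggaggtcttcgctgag
SEC23B, upstream start (chr20:18507298-18507597, plus strand): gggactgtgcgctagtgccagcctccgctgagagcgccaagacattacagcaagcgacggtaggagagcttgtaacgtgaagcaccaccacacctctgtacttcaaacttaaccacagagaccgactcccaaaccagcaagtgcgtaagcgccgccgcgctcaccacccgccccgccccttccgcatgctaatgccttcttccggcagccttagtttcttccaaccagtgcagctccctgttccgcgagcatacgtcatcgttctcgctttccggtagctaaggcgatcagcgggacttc
SEC23B, downstream start (chr20:18507690-18507989, plus strand): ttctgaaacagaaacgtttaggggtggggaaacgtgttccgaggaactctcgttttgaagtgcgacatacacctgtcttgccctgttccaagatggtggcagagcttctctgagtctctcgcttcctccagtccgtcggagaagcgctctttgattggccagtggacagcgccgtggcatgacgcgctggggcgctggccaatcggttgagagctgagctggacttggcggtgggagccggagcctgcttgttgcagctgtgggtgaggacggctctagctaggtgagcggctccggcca

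Of the 8 COPII coat genes, 3 rose, 1 fell and 4 were not called. These are 37.5% higher and 12.5% lower, beside 34.4% and 35% of all tested genes. SEC31A, which encodes the outer cage subunit that pairs with SEC13, had 286.0, 280.2 and 279.6 CPM in PERK siRNA samples, against 170.9, 176.6 and 176.0 CPM in control samples. The groups lay far apart and the replicates of each within a few CPM, giving a 1.62-fold rise (log2 fold change 0.69 ± 0.03 SE, edgeR adjusted p = 8.8e-20). SEC31A (ENSG00000138674) lies at chr4:82818661-82901166 on the minus strand in GENCODE 29 (GRCh38), with 36 merged exons. Its partner SEC13 rose less, at 126.8 ± 3.27 CPM with PERK siRNA and 112.6 ± 2.75 CPM with control siRNA (SD, n = 3 each; log2 fold change 0.17, edgeR adjusted p = 1.9e-05).

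In the inner coat, the SEC23 paralogs moved in opposite directions. SEC23A, the GTPase-activating coat subunit that stimulates SAR1, had 298.3, 296.4 and 302.4 CPM in PERK siRNA samples and 226.6, 233.9 and 231.5 CPM in control samples. Every PERK siRNA sample was above every control sample, and the rise was 1.30-fold (log2 fold change 0.37 ± 0.03 SE, edgeR adjusted p = 7.6e-14). SEC23B, its close paralog, had 95.8, 91.1 and 90.2 CPM with PERK siRNA and 112.0, 118.5 and 120.1 CPM with control siRNA. These groups did not overlap either, but in the other direction, at 0.79 times the control level (log2 fold change -0.34 ± 0.03 SE, edgeR adjusted p = 5.9e-10). SEC23B no longer passed the 1.2-fold test without PERK siRNA replicate 3 (edgeR adjusted p = 0.0589) or without control replicate 3 (edgeR adjusted p = 0.0524). SEC23A (ENSG00000100934) spans chr14:39031919-39109646 on the minus strand and SEC23B (ENSG00000101310) spans chr20:18507482-18561415 on the plus strand. All reads of both were placed uniquely.

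Per length, SEC23A made up 68.0, 68.9 and 69.6% of the SEC23A and SEC23B TPM in PERK siRNA samples, against 58.0, 57.4 and 56.8% in control samples. The pair summed to 251.2 ± 1.01 TPM with PERK siRNA and 233.4 ± 6.23 TPM with control siRNA (SD, n = 3 each). With 3 samples against 3, an exact permutation test of such a share cannot go below p = 0.10, so shares are given without a test.

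The 4 SEC24 genes, which encode the cargo-binding coat subunits, were not called by edgeR, DESeq2 or limma-voom. In edgeR 0 of them had an unadjusted p under 0.05. Of all tested genes, edgeR called 34.4% higher and 35% lower. Their log2 fold changes were -0.09 for SEC24A (95% interval -0.18 to 0.01), -0.02 for SEC24B (-0.10 to 0.06), 0.06 for SEC24C (-0.01 to 0.12) and 0.04 for SEC24D (-0.02 to 0.10). The family summed to 265.0 ± 4.92 TPM with PERK siRNA and 261.6 ± 7.41 TPM with control siRNA, with SEC24C the largest part at 47.2 ± 0.99% with PERK siRNA and 46.2 ± 0.35% with control siRNA. SEC24A passed as lower without PERK siRNA replicate 3 (edgeR adjusted p = 0.0271) or control replicate 3 (edgeR adjusted p = 0.0218) and with no filter on low counts (edgeR adjusted p = 0.0340), and SEC24C passed as higher with upper-quartile factors (edgeR adjusted p = 0.0377).

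None of the 6 COPII regulators passed edgeR's 1.2-fold test, 0 of them at an unadjusted p under 0.05. That is 0%, beside 18.1% of all tested genes in each direction. At any fold, SAR1A and MIA3 rose and SEC16A fell. These are 33.3% higher and 16.7% lower, beside 34.4% and 35% of all tested genes. SEC16A, the scaffold of ER exit sites, had 196.5, 204.2 and 197.8 CPM in PERK siRNA samples and 245.2, 241.0 and 233.0 CPM in control samples. The groups did not overlap, with PERK siRNA at 0.83 times the control level (log2 fold change -0.26 ± 0.03 SE, edgeR adjusted p = 9.0e-10). SAR1A, 1 of the 2 SAR1 GTPases that start coat assembly, averaged 130.7 ± 1.17 CPM with PERK siRNA and 107.3 ± 2.95 CPM with control siRNA (SD, n = 3 each; log2 fold change 0.28, edgeR adjusted p = 2.0e-09). Its paralog SAR1B was not called (log2 fold change 0.03, 95% interval -0.04 to 0.11), and SAR1A made up 67.3 ± 1.00% of the pair's TPM with PERK siRNA and 63.4 ± 0.56% with control siRNA. MIA3, also called TANGO1, links large collagen cargo to the COPII coat; it averaged 62.9 ± 1.13 CPM with PERK siRNA and 53.6 ± 0.39 CPM with control siRNA (log2 fold change 0.23, edgeR adjusted p = 4.6e-06). PREB, the exchange factor for SAR1, and TFG, which organises exit sites, had log2 fold changes of 0.02 (95% interval -0.05 to 0.10) and 0.05 (-0.01 to 0.11) and were not called. SEC16A carries the GACGTGG letters shown with the promoters, and so does SAR1A. MIA3 carries the TGACGTG letters, in a window at a start that lies inside its gene span.

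**Figure D2:**
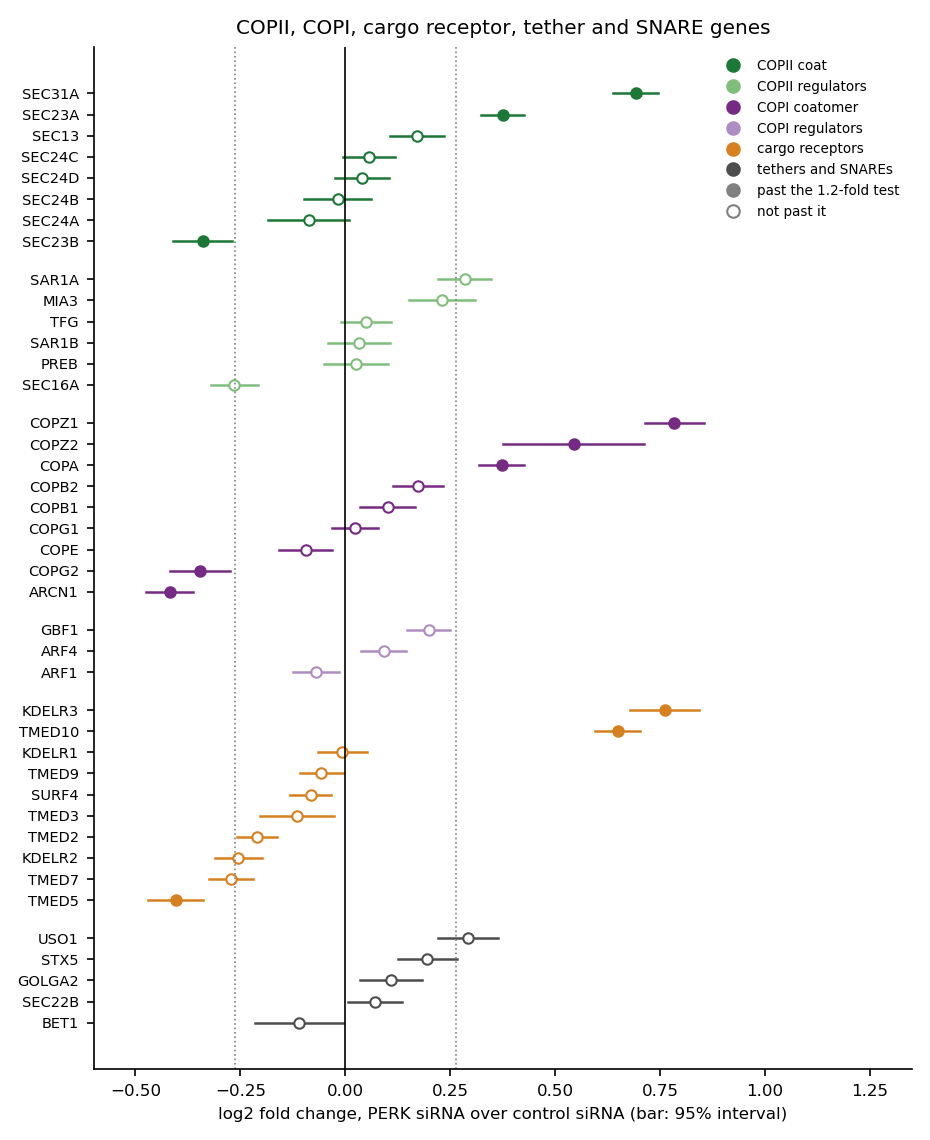
Log2 fold change of each of the 41 members with its 95% interval (unadjusted), grouped by role and ordered by fold change within a role; filled points passed the 1.2-fold test, and dotted lines mark 1.2-fold. COPZ1 (0.78), KDELR3 (0.76), SEC31A (0.69) and TMED10 (0.65) stand highest, and ARCN1 (-0.42) and TMED5 (-0.40) lowest.

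Of the 9 coatomer genes, 5 rose, 3 fell and 1 was not called, and 5 of the 9 passed the 1.2-fold test. These are 55.6% higher and 33.3% lower, beside 34.4% and 35% of all tested genes. Past 1.2-fold they are 33.3% higher and 22.2% lower, beside 18.1% in each direction. COPZ1 encodes the ζ subunit, a small part of the inner coat, and was the member with the largest fold change. It had 127.8, 127.4 and 123.4 CPM in PERK siRNA samples, against 70.8, 72.9 and 76.2 CPM in control samples. The groups were well separated, with a 1.72-fold rise (log2 fold change 0.78 ± 0.03 SE, edgeR adjusted p = 2.5e-18). Its paralog COPZ2 had 27.2, 29.1 and 31.3 CPM with PERK siRNA and 22.9, 17.8 and 19.3 CPM with control siRNA. Its groups did not overlap, though control replicate 1 came near, and as the member with the fewest reads it had the widest error (log2 fold change 0.54 ± 0.08 SE, edgeR adjusted p = 9.7e-06). Both ζ genes therefore moved the same way, and their TPM sum was 198.7 ± 3.32 with PERK siRNA and 122.7 ± 3.99 with control siRNA (SD, n = 3 each). COPZ1 (ENSG00000111481) lies at chr12:54301202-54351849 on the plus strand and COPZ2 (ENSG00000005243) at chr17:48026167-48038030 on the minus strand.

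COPA, which encodes the α subunit of the outer coat, had 330.4, 314.3 and 324.5 CPM in PERK siRNA samples and 249.3, 246.3 and 252.9 CPM in control samples. All 3 PERK siRNA values were above all control values, a 1.29-fold rise (log2 fold change 0.37 ± 0.03 SE, edgeR adjusted p = 1.6e-13). COPA (ENSG00000122218) lies at chr1:160288686-160343400 on the minus strand, and 1.67% of its exon bases overlap NCSTN on the opposite strand. The β and β′ subunit genes COPB1 and COPB2 rose by less, at log2 fold changes of 0.10 (edgeR adjusted p = 6.1e-03) and 0.17 (edgeR adjusted p = 7.1e-06). The uniquely placed share of their reads was 91.8% for COPB1 and 85.1% for COPB2, and the rise of both was also called on unique reads.

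ARCN1, the δ subunit gene, had 137.1, 142.8 and 140.9 CPM in PERK siRNA samples and 189.5, 186.9 and 186.3 CPM in control samples. It was lower in every PERK siRNA sample, at 0.75 times the control level, and had the lowest fold change of the 41 (log2 fold change -0.42 ± 0.03 SE, edgeR adjusted p = 5.1e-14). ARCN1 (ENSG00000095139) lies at chr11:118572390-118603033 on the plus strand, and its GACGTGG site is shown with the promoters. COPG2, 1 of the pair of γ subunit genes, had 73.9, 77.6 and 79.5 CPM with PERK siRNA and 96.4, 98.2 and 99.2 CPM with control siRNA. The groups did not overlap (log2 fold change -0.35 ± 0.03 SE, edgeR adjusted p = 5.4e-10), but COPG2 no longer passed the 1.2-fold test without PERK siRNA replicate 1 (edgeR adjusted p = 0.0634). COPG2 (ENSG00000158623) lies at chr7:130506238-130668748 on the minus strand, and 5.51% of its exon bases overlap genes on the opposite strand, so reads there cannot be told apart if strand was not used in counting. COPG1, the more abundant γ gene, was not called (log2 fold change 0.02, 95% interval -0.03 to 0.08). COPG2 made up 21.8 ± 0.30% of the pair's TPM with PERK siRNA and 26.4 ± 0.46% with control siRNA.

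COPE, the ε subunit gene, fell by 0.09 on the log2 scale (edgeR adjusted p = 7.9e-03). That call was lost without PERK siRNA replicate 1 (edgeR adjusted p = 0.0665) or control replicate 1 (edgeR adjusted p = 0.0575). Its uniquely placed share was 79.7%, and another gene on the same strand covers 9.15% of its exon bases.

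Because coatomer joins the Golgi as a single complex with 1 copy of each of its 7 subunits, the per-length levels of the subunit genes can be set side by side. With paralogs summed, ζ had 198.7 TPM with PERK siRNA and 122.7 TPM with control siRNA, α had 209.1 TPM with PERK siRNA and 162.2 TPM with control siRNA, and δ had 116.7 TPM with PERK siRNA and 156.7 TPM with control siRNA. The δ mRNA was thus below ζ in PERK siRNA samples and above it in control samples. The ε gene had the highest level in both groups, at 365.6 TPM with PERK siRNA and 392.2 TPM with control siRNA. The highest subunit was 3.09 to 3.24 times the lowest in PERK siRNA samples and 3.49 to 3.69 times in control samples. TPM divides by a gene's full exon length, so an order between subunits depends on that length.

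**Figure D3:**
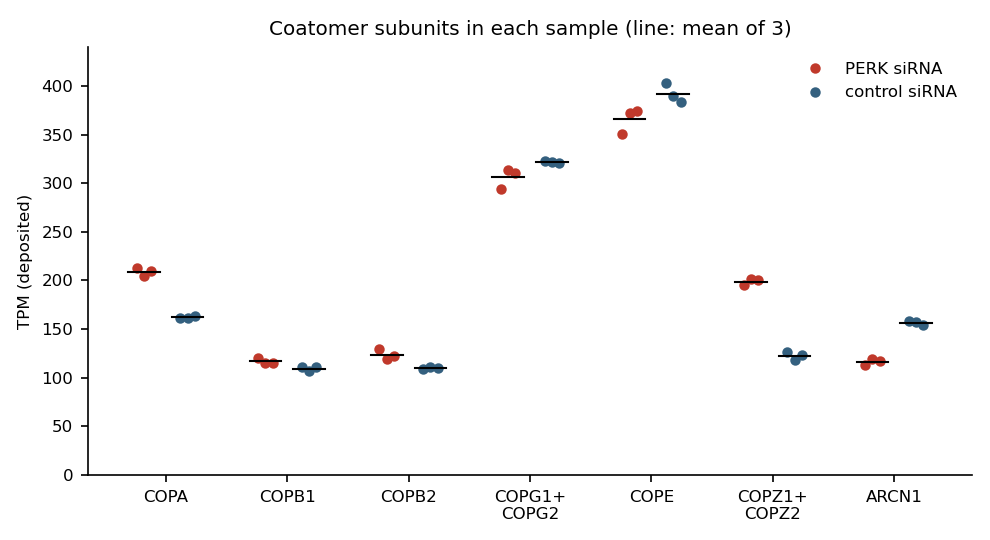
Deposited TPM of the 7 coatomer subunits in each sample, PERK siRNA left of control siRNA, with γ and ζ as sums of their 2 genes and a line at each mean. ζ averaged 198.7 TPM with PERK siRNA and 122.7 TPM with control siRNA, and δ, encoded by ARCN1, 116.7 TPM with PERK siRNA and 156.7 TPM with control siRNA.

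None of the 3 COPI regulators passed edgeR's 1.2-fold test, 0 of them at an unadjusted p under 0.05. That is 0%, beside 18.1% of all tested genes in each direction. At any fold, 66.7% were higher and 33.3% lower, beside 34.4% and 35% of all tested genes. GBF1, the exchange factor that activates ARF proteins at the early Golgi, had 243.1, 245.6 and 245.9 CPM in PERK siRNA samples and 213.7, 214.6 and 211.8 CPM in control samples. The groups were tight and did not overlap (log2 fold change 0.20 ± 0.03 SE, edgeR adjusted p = 4.8e-08). The ARF GTPases, which recruit coatomer to the membrane, had values of opposite sign: ARF4 rose by 0.09 on the log2 scale (edgeR adjusted p = 3.0e-03), and ARF1 had a log2 fold change of -0.07 (edgeR adjusted p = 0.021) with overlapping groups. The ARF1 call was lost without PERK siRNA replicate 2 (edgeR adjusted p = 0.110), PERK siRNA replicate 3 (edgeR adjusted p = 0.0898) or control replicate 3 (edgeR adjusted p = 0.0718), and with upper-quartile factors (edgeR adjusted p = 0.0607).

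Among the 10 cargo receptors, 2 rose, 7 fell and 1 was not called, and both risers, KDELR3 and TMED10, passed the 1.5-fold test. The called shares are 20% higher and 70% lower, beside 34.4% and 35% of all tested genes. Past 1.2-fold they are 20% higher and 10% lower, beside 18.1% of all tested genes in each direction. KDELR3 encodes 1 of the 3 KDEL receptors, which catch ER-resident chaperones in the Golgi and return them in COPI vesicles. It had 85.1, 82.3 and 80.4 CPM in PERK siRNA samples, against 47.1, 47.7 and 51.4 CPM in control samples. The groups were far apart, with a 1.69-fold rise (log2 fold change 0.76 ± 0.04 SE, edgeR adjusted p = 2.9e-16). KDELR2 fell, to 220.3 ± 7.96 CPM with PERK siRNA against 262.7 ± 2.74 CPM with control siRNA (SD, n = 3 each; log2 fold change -0.26, edgeR adjusted p = 2.1e-09). DAGLB covers 9.42% of the KDELR2 exon bases on the same strand, and 97.7% of KDELR2 reads were placed uniquely. KDELR1 was not called (log2 fold change -0.01, 95% interval -0.07 to 0.05). KDELR3 (ENSG00000100196) lies at chr22:38468062-38483447 on the plus strand, and its GACGTGG site is printed with the promoters.

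The 3 KDEL receptor genes summed to 715.9 ± 8.69 TPM with PERK siRNA and 707.5 ± 6.49 TPM with control siRNA (SD, n = 3 each). KDELR3 made up 21.5, 21.5 and 20.8% of that sum in PERK siRNA samples and 12.2, 12.6 and 13.5% in control samples. KDELR2 made up 35.8 ± 0.84% with PERK siRNA and 43.4 ± 0.56% with control siRNA. KDELR1 made up 42.9 ± 0.63% with PERK siRNA and 43.8 ± 1.22% with control siRNA. The KDELR2 and KDELR3 shares did not overlap between the groups, and the KDELR1 share did.

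**Figure D4:**
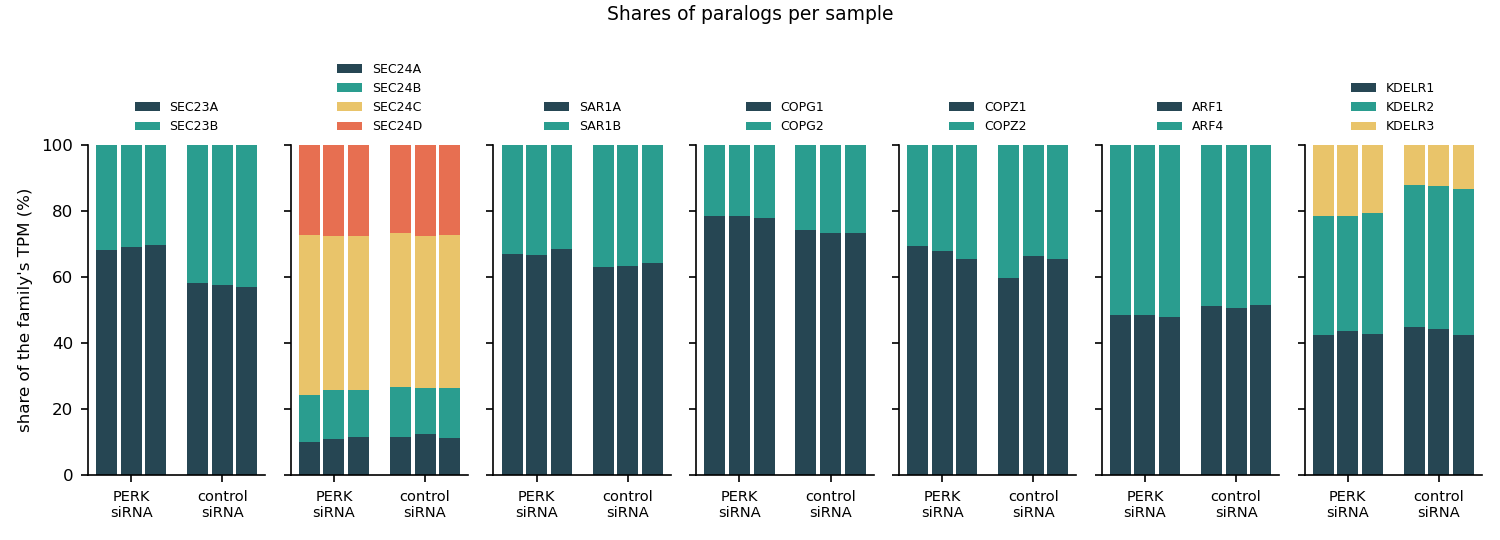
Share of each paralog in its family's summed TPM, 1 bar per sample, with the 3 PERK siRNA samples left of the 3 control samples in each family. SEC23A took 68.0 to 69.6% with PERK siRNA and 56.8 to 58.0% with control siRNA, and KDELR3 20.8 to 21.5% with PERK siRNA and 12.2 to 13.5% with control siRNA, while each SEC24 share overlapped between the groups.

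The p24 proteins, encoded by TMED genes, are small cargo receptors that shuttle in both coats. Of the 6 among the members, 5 fell and TMED10 rose. That is 83.3% lower and 16.7% higher, beside 35% and 34.4% of all tested genes. Past 1.2-fold it is 16.7% in each direction, beside 18.1% of all tested genes in each. Further TMED genes outside the members were taken by symbol, whether or not they encode p24 proteins. Of these, TMED4 rose (log2 fold change 0.40, edgeR adjusted p = 2.4e-08). TMED1 and TMED8 fell (log2 fold changes -0.21 and -1.16, edgeR adjusted p = 4.4e-04 and 5.4e-14). TMED10, the p24 δ-family protein, had 254.5, 253.7 and 253.5 CPM in PERK siRNA samples and 160.5, 165.1 and 160.3 CPM in control samples. Its 3 PERK siRNA values lay close together and above every control value, a 1.57-fold rise (log2 fold change 0.65 ± 0.03 SE, edgeR adjusted p = 4.1e-19). TMED5, a γ-family p24 protein, had 102.2, 101.5 and 95.4 CPM with PERK siRNA and 129.8, 132.3 and 133.7 CPM with control siRNA. It was at 0.76 times the control level, and its groups did not overlap (log2 fold change -0.40 ± 0.03 SE, edgeR adjusted p = 3.2e-12). TMED10 (ENSG00000170348) lies at chr14:75131470-75176631 on the minus strand and TMED5 (ENSG00000117500) at chr1:93149742-93180728 on the minus strand. Of TMED5 exon bases, 7.16% overlap CCDC18 on the opposite strand, and 91.0% of its reads were placed uniquely.

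The other p24 members fell by less than TMED5. TMED2, the β-family p24 protein and the most abundant of the 6 per length, had 365.6 ± 0.99 TPM with PERK siRNA and 424.8 ± 3.68 TPM with control siRNA (SD, n = 3 each; log2 fold change -0.21 on the CPM scale, edgeR adjusted p = 3.8e-09). TMED7 had a log2 fold change of -0.27 (edgeR adjusted p = 1.5e-10), with 79.5% of its reads placed uniquely and 24% of its exon bases shared with the readthrough gene TMED7-TICAM2. TMED3 had -0.11 (edgeR adjusted p = 0.019) and TMED9 -0.06 (edgeR adjusted p = 0.048), and neither call was stable. TMED3 was lost without PERK siRNA replicate 1 (edgeR adjusted p = 0.129), PERK siRNA replicate 2 (edgeR adjusted p = 0.0952) or control replicate 1 (edgeR adjusted p = 0.0895), and in DESeq2 (adjusted p = 0.0606). TMED9 was lost without PERK siRNA replicate 2 (edgeR adjusted p = 0.197), PERK siRNA replicate 3 (edgeR adjusted p = 0.0649), control replicate 1 (edgeR adjusted p = 0.112) or control replicate 2 (edgeR adjusted p = 0.0725). It was also lost with median-ratio factors (edgeR adjusted p = 0.0525), upper-quartile factors (edgeR adjusted p = 0.141) and DESeq2 (adjusted p = 0.104). SURF4, a receptor for soluble secreted cargo and the member with the highest level per length, had 445.6 ± 5.76 TPM with PERK siRNA and 473.8 ± 5.99 TPM with control siRNA (log2 fold change -0.08 on the CPM scale, edgeR adjusted p = 3.2e-03).

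**Figure D5:**
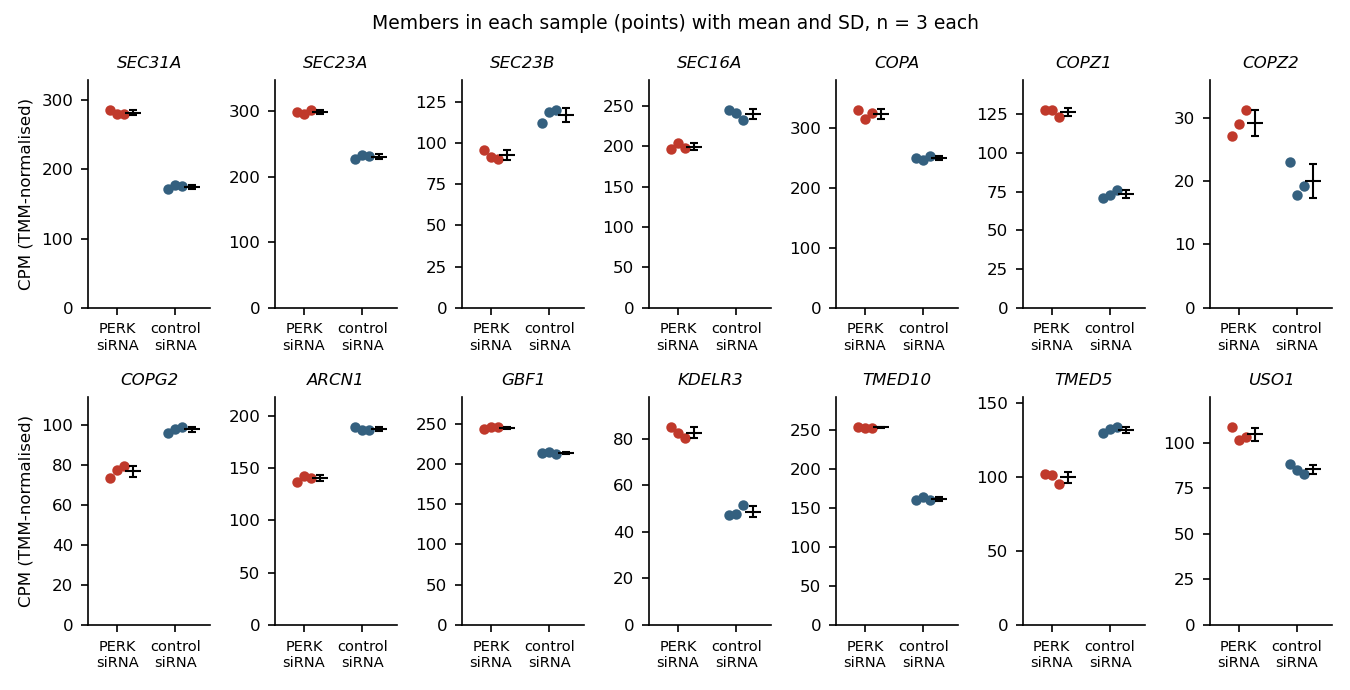
CPM (scaled by TMM factors) of the 11 members past the 1.2-fold test and of SEC16A, GBF1 and USO1 in each sample, PERK siRNA left of control siRNA, with the mean and SD of 3. In none of the 14 genes do the PERK siRNA and control samples overlap, but the 14 were chosen by tests on these same values. Of all tested genes, 71.8% do not overlap.

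Of the 5 tethers and SNAREs, which dock and fuse the vesicles, 4 rose, 0 fell and none passed the 1.2-fold test. The called shares are 80% higher and 0% lower, beside 34.4% and 35% of all tested genes. Past 1.2-fold they are 0% in each direction, beside 18.1% of all tested genes in each. In edgeR, 1 (BET1) was lower at an unadjusted p under 0.05, and DESeq2 and limma-voom called 0 lower. USO1, the long tether p115, had 108.7, 101.7 and 103.4 CPM in PERK siRNA samples and 88.1, 85.3 and 82.7 CPM in control samples. The groups did not overlap (log2 fold change 0.29 ± 0.03 SE, edgeR adjusted p = 1.6e-08). STX5, the Golgi syntaxin, rose by 0.20 on the log2 scale (edgeR adjusted p = 1.1e-05), and GOLGA2, the golgin GM130 to which p115 binds, by 0.11 (edgeR adjusted p = 8.3e-03). The GOLGA2 call was lost without control replicate 1 (edgeR adjusted p = 0.0729). SEC22B, an ER-Golgi SNARE, had 0.07 with overlapping groups and an adjusted p next to the threshold (edgeR adjusted p = 0.048), and leaving out PERK siRNA replicate 1 (edgeR adjusted p = 0.211), PERK siRNA replicate 3 (edgeR adjusted p = 0.0658), control replicate 1 (edgeR adjusted p = 0.343) or control replicate 3 (edgeR adjusted p = 0.114) ended it. So did median-ratio factors, no scaling factor, no filter, non-robust dispersion, DESeq2 and limma-voom, with adjusted p between 0.0513 and 0.119. BET1, a partner SNARE, was not called at -0.11 (edgeR adjusted p = 0.055), and was called lower without control replicate 2 (edgeR adjusted p = 0.0413), with no scaling factor (edgeR adjusted p = 0.0351), with no filter (edgeR adjusted p = 0.0480) and with non-robust dispersion (edgeR adjusted p = 0.0498).

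Set side by side, COPI had 7 of 12 members higher and 4 lower, COPII 5 of 14 higher and 2 lower, and cargo receptors 2 of 10 higher and 7 lower. These are 58.3% higher and 33.3% lower for COPI, 35.7% and 14.3% for COPII, and 20% and 70% for cargo receptors. Among all tested genes the shares were 34.4% and 35%. Past 1.2-fold, COPI had 25% higher and 16.7% lower, COPII 14.3% and 7.14%, and cargo receptors 20% and 10%. All tested genes had 18.1% in each direction. Median log2 fold changes of COPI, COPII and cargo receptors were 0.10, 0.04 and -0.10, with the tethers and SNAREs at 0.11 and all tested genes at 0.00. Summed over members, COPII genes had 1306 ± 15.4 TPM with PERK siRNA and 1201 ± 8.28 TPM with control siRNA (SD, n = 3 each), and COPI genes had 2221 ± 7.52 TPM with PERK siRNA and 2143 ± 11.7 TPM with control siRNA. Cargo receptors had 2345 ± 13.3 TPM with PERK siRNA and 2428 ± 26.5 TPM with control siRNA. Differences between these classes were not tested.

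The members were also set against 72 other genes of ER-Golgi transport, all of which were tested: further exit-site, cargo receptor and ARF genes, the TRAPP and COG tethering complexes, Rab GTPases, golgins and SNAREs. Of these, 24 rose and 33 fell, 10 and 12 of them past 1.2-fold, with a median log2 fold change of -0.06. That is 33.3% higher and 45.8% lower, beside 34.4% and 35% of all tested genes, and 13.9% and 16.7% past 1.2-fold, beside 18.1% in each direction. RAB1A, the GTPase that recruits p115 to COPII vesicles, fell most, to 56.0 ± 2.43 CPM with PERK siRNA against 195.7 ± 2.53 CPM with control siRNA (SD, n = 3 each; log2 fold change -1.80, edgeR adjusted p = 3.4e-27). Of its exon bases 22.9% overlap CEP68 on the opposite strand. RAB1B, its paralog, had 435.5 ± 5.32 CPM with PERK siRNA and 418.4 ± 9.43 CPM with control siRNA (log2 fold change 0.06, edgeR adjusted p = 0.039); it was chosen after its values were seen. TMED8 fell by 1.16 on the log2 scale (edgeR adjusted p = 5.4e-14) and STX17, a SNARE known from autophagosome fusion, by 0.80 (edgeR adjusted p = 5.9e-15). ARFIP1, an ARF-binding protein, rose most, to 53.0 ± 1.65 CPM with PERK siRNA against 16.1 ± 0.48 CPM with control siRNA (log2 fold change 1.72, edgeR adjusted p = 6.1e-22). NSF, the ATPase that takes SNARE complexes apart, and COG2 rose by 0.57 and 0.49 (edgeR adjusted p = 2.8e-17 and 7.3e-06), COG2 with 75.4% of its reads placed uniquely.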

How the data were processed

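RNA from 6 LX-2 samples was sequenced, with libraries made by a directional kit, per the labels' protocols. The authors deposited per-gene counts (total and unique exon reads) and TPM, per the file headers. Per the submitters' processing notes, reads were placed on hg38; no source used here names the aligner, the annotation or the use of strand in counting. Deposited TPM equalled reads over exon length, scaled, to a largest relative difference of 7.1e-08.

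Total exon read counts, as deposited, were tested with edgeR 4.0.16 (R 4.3.3; TMM factors, default expression filter, robust quasi-likelihood, no covariate) on 12973 of 16842 genes with a read, at a Benjamini-Hochberg adjusted p of 0.05. The 1.2-fold test was glmTreat on that fit. Fold changes are PERK siRNA over control siRNA, and CPM are TMM-scaled. Intervals are unadjusted 95% intervals. Groups and replicate numbers came from the titles. The fit was tested on simulated data.

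Of total exon reads, 94.9 to 95.0% were unique per sample, and 3 reads equal 0.153 to 0.167 CPM. Replicates differed by more than sampling noise (chi-square per degree of freedom 1.67 to 2.29), so none was taken for a copy.

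Every member is named. Values by sample are given for members past the 1.2-fold test and, in a role with none, for the member with the smallest adjusted p. Of the other ER-Golgi genes, the 3 largest rises and falls past that test with mean log2 CPM of at least 3 are named. The further TMED genes are named beside the p24 members. The members and lists were chosen with earlier results of these data known. Gene positions, merged exons and exon overlaps are from GENCODE 29. Its exon lengths differ from the deposited ones for members such as COPE, COPA and TMED5, so the overlaps may not apply to the counted exons. Promoter windows are from RefSeq, and 5 members (TMED9, SEC24D, KDELR2, ARF4, USO1) had no window. Alternatives used DESeq2 1.42.0, limma 3.58.1, other scaling and filters, unique reads, a replicate block and leaving out each sample.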

Additional observations from a re-analysis of the deposited data

How the results depend on the processing

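Across 16 alternatives, 32 of 41 members kept their call, and the 9 whose call changed had a log2 fold change of at most 0.11 in size. Members called higher numbered 16 to 18 and called lower 10 to 13 when each sample was left out, against 18 and 13. Past 1.2-fold 7 rose in each such fit and 3 or 4 fell. Against a null of 1.5-fold, 4 rose and 0 fell. The replicate block gave 17 higher and 12 lower, and 7 and 4 past 1.2-fold, and moved no count by over 1.5 times. Same-numbered samples did not deviate together over all tested genes (correlations 0.011, -0.032 and -0.029). These correlations show no pairing by number, but they cannot exclude one limited to some genes. With the replicate block TMED9 (adjusted p = 0.0544) and SEC22B (0.0506) were not called. DESeq2 gave 17 and 11, and limma-voom 17 and 13. The sign turned for PREB, not called, when samples were left out (-0.0022 to 0.046) and for KDELR1, not called, at 0.0078 with upper-quartile factors and between -0.034 and 0.016 with samples left out. The median of all genes moved by less than 0.1 under every scaling.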

Other observations

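Of 13 TRAPP genes, subunits of the complex that activates RAB1, 4 rose and 6 fell with PERK siRNA (30.8% and 46.2%, beside 34.4% and 35% of all tested genes). TRAPPC6B averaged 25.7 ± 1.19 CPM with PERK siRNA and 43.4 ± 1.12 CPM with control siRNA (SD, n = 3 each; log2 fold change -0.76, edgeR adjusted p = 7.2e-14), and TRAPPC10 51.3 ± 3.08 CPM with PERK siRNA and 70.8 ± 0.85 CPM with control siRNA (log2 fold change -0.46, edgeR adjusted p = 4.4e-11). Of 8 COG genes, whose products form the complex that tethers vesicles within the Golgi, 5 rose and 3 fell (62.5% and 37.5%). COG8 averaged 22.0 ± 0.34 CPM with PERK siRNA and 16.3 ± 0.41 CPM with control siRNA (log2 fold change 0.43, edgeR adjusted p = 7.7e-07), with 63.1% of its reads placed uniquely, and COG7 12.9 ± 1.504 CPM with PERK siRNA and 16.6 ± 0.23 CPM with control siRNA (log2 fold change -0.36, edgeR adjusted p = 2.6e-04).

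The LMAN1 and MCFD2 proteins form a cargo receptor for coagulation factors. MCFD2 averaged 246.1 ± 3.45 CPM with PERK siRNA and 425.8 ± 8.71 CPM with control siRNA (log2 fold change -0.79, edgeR adjusted p = 1.5e-21), and LMAN1 254.3 ± 3.32 CPM with PERK siRNA and 291.3 ± 1.43 CPM with control siRNA (log2 fold change -0.20, edgeR adjusted p = 4.2e-08). The genes in these paragraphs were chosen after their values were seen.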
